A study of Gossypium hirsutum with 6 samples.

Results

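The genes described here are 8 amine and polyamine oxidases of *Gossypium hirsutum*, the enzymes that break down putrescine (Put) and the longer polyamines made from it. They comprise 5 genes described as primary amine oxidase, 2 as probable polyamine oxidase 5 and 1 as polyamine oxidase 1, among 100562 genes listed in the files. The 8 genes were taken from a list of identifiers that was drawn up with earlier results of the same Put against CK comparison in view. They are not the whole enzyme family, since 32 genes carry an amine or polyamine oxidase description. Because the list was selected on that comparison, the difference between Put and CK in the 8 genes is given as a description, with no p-value, and the calls and standard errors given for them are part of the selection and not evidence for it.

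RNA was sequenced from wild type ovules of the tetraploid upland cotton cultivar ZM24, which were taken on the day of anthesis and cultured in the dark. The control ovules (CK, 3 samples) received water and the treated ovules (Put, 3 samples) received 10 μmol/L Put, and both were collected after 2 d of culture. The methods describe ovule samples that were randomly divided into replicates, so p-values measure the spread between these samples, which may be technical. The RNA came from bulk ovule tissue, so a gene active in few cells and a gene weakly active in many cannot be told apart, nor can fewer cells and less RNA per cell.

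Polyamines are small, positively charged molecules, and the diamine Put is the precursor of spermidine and spermine. Primary amine oxidases are copper enzymes that oxidize Put at a terminal amino group, which releases ammonia, hydrogen peroxide and an aminoaldehyde that can be carried on to gamma-aminobutyrate (GABA). Polyamine oxidases are flavin enzymes that oxidize spermidine, spermine or thermospermine at an inner amino group, and they also release hydrogen peroxide, a molecule that is known to act in cotton fiber growth. In *Arabidopsis thaliana*, polyamine oxidase 1 and polyamine oxidase 5 are known as cytosolic enzymes, and polyamine oxidase 5 as an oxidase of thermospermine.

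The 8 genes split by locus. A primary amine oxidase locus found on both A02 and D02 was higher in Put, at 1.67- to 1.89-fold in its 3 genes. The primary amine oxidases on A08 and A03 were 3.24- and 3.46-fold lower, and the polyamine oxidase 5 pair on A07 and D07 was 2.16- and 2.63-fold lower. The polyamine oxidase 1 gene on A08 had few counts, and its conditions overlapped. All 8 genes passed the filter on low counts of edgeR's quasi-likelihood test, which took genes with an adjusted p under 0.05 as differing. Of the 8, 3 were called higher, 4 lower and 1 was not called, in a comparison that called 36.6% of the 51764 tested genes (18.4% higher and 18.2% lower). In 7 of the 8 genes no Put sample lay within the range of the CK samples, as in 45.4% of all tested genes. Since that comparison may have chosen the genes, nothing is read from these counts.

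**Figure D1:**
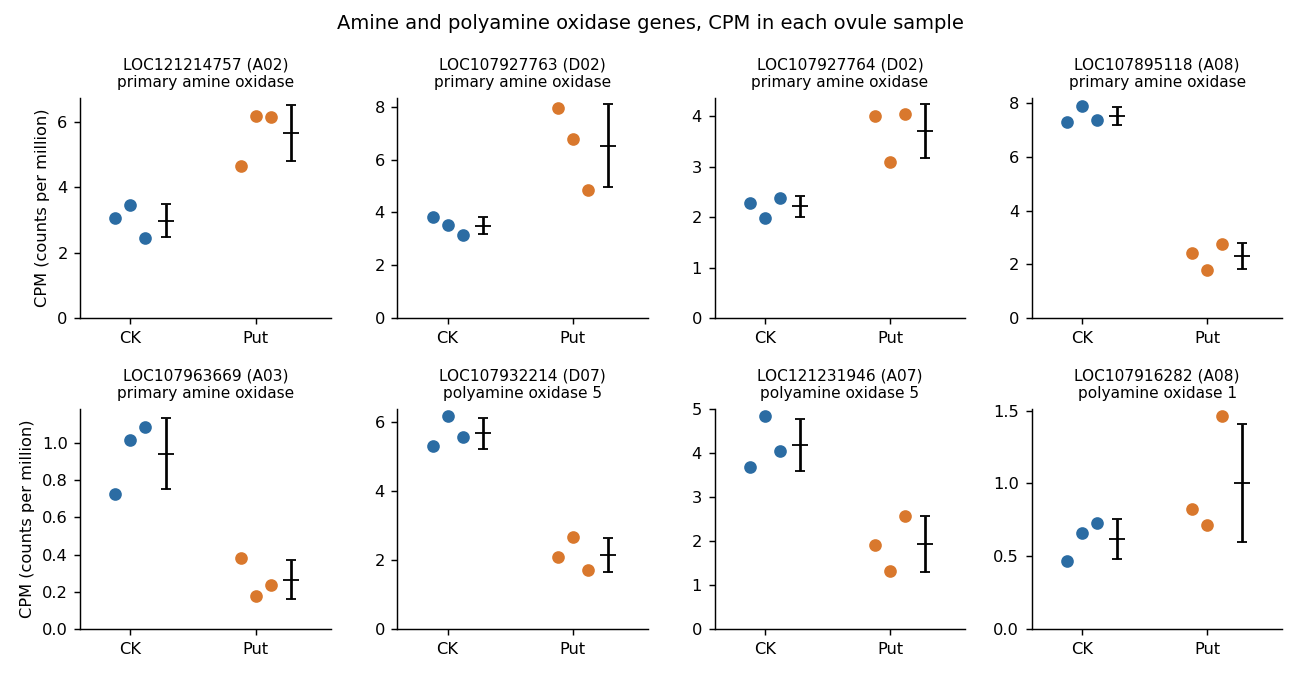
CPM (counts scaled to the normalized library size, each vertical axis from 0 with its own scale) of the 8 listed genes in the 3 CK (blue) and 3 Put (orange) ovule samples, with the mean and SD in black beside the points. The conditions do not overlap in 7 panels, 3 with higher and 4 with lower Put samples, and they overlap for polyamine oxidase 1 (LOC107916282).

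The samples held between 16974557 and 19463059 counts, where 1 count is a read pair assigned to a gene. A gene with 3 counts, the smallest taken as detected, therefore had 0.153 to 0.178 CPM (counts scaled to a common library size). The 8 genes were low, with mean CPM at percentiles 1.74 to 35.3 of the tested genes. Among markers of the tissues, the summed CPM of 17 ovule genes lay between 558 and 569 in CK and between 535 and 545 in Put, with 3 of 13 tested genes higher and 9 lower (median log2 fold change -0.54) and 2 *YABBY 4* genes at 0 in all samples. Taken as fiber markers by name were 119 genes described as protein E6, expansin-A or tubulin beta. Their summed CPM lay between 5622 and 5673 in CK and between 14345 and 14467 in Put, and it was not split by family. Of 80 tested, 40 were higher and 18 lower (median 0.25), and 13 genes were at 0. Both sums thus differ in size from the median of their genes. Of 57 genes of green tissue 37 were tested, of which 1 was higher and 13 were lower (median -0.25). The summed CPM of the 57 was 237 to 240 in CK and 196 to 202 in Put. The 19 pollen and anther genes, 7 of them at 0, had a summed CPM of 44.3 to 45.9 in CK and 44.4 to 47.9 in Put. These counts of called markers stand beside 18.4% higher and 18.2% lower among all tested genes. The part of the fiber, ovule and green tissue genes in the values below was not tested.

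On chromosome A02 of the Gossypium_hirsutum_v2.1 assembly, LOC121214757 (described as primary amine oxidase-like) spans 3814115 to 3825258 on the minus strand. Its annotated exons cover 8447 bp, and it lists the N2, N3 and enzyme domains of copper amine oxidases together with PsaD, a domain of photosystem I. Its counts were 59, 68 and 47 in CK and 85, 104 and 105 in Put. Every Put sample was above every CK sample. The mean was 2.98 ± 0.514 CPM in CK and 5.66 ± 0.866 CPM in Put (SD, n = 3), which is 0.92 higher on the log2 scale (standard error 0.17). This was the gene most dependent on the processing. With limma on log2(FPKM + 1) its log2 fold change was 0.30, and limma did not call it on that scale or on log2(FPKM + 0.1). With offsets that follow gene length the log2 fold change was 1.18.

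The D02 copy of this locus is annotated as a pair of genes on the minus strand that lie 520 bp apart. LOC107927763 (primary amine oxidase, 4750102 to 4755143) lists the N2, N3 and enzyme domains in 2322 bp of exons. Its counts were 74, 69 and 61 in CK and 145, 114 and 83 in Put. Its 3 Put samples were all above CK but were widely spread, with a variance of the counts 8.43 times their mean. The mean CPM was 3.50 ± 0.335 in CK and 6.53 ± 1.56 in Put (log2 fold change 0.90, standard error 0.17). LOC107927764 (primary amine oxidase 2-like, 4755664 to 4756619) is shorter, with 872 bp of exons and the N2 domain alone. It had 44, 39 and 46 counts in CK and 73, 52 and 69 in Put. These again did not overlap, and the mean rose from 2.22 ± 0.208 to 3.71 ± 0.539 CPM (log2 fold change 0.74, standard error 0.20).

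The A02 and D02 loci were matched as homeologs, the copies of a gene in the A and D subgenomes, by the genes around them. Of 22 distinct descriptions among the 15 genes on each side of LOC121214757, 17 recur around LOC107927763, against at most 3 around any family gene at another locus. The A copy held 33.3, 38.6 and 30.5% of the counts of the 3 genes in CK and 28.1, 38.5 and 40.9% in Put. The exact 95% binomial intervals of the samples, which cover counting error only, ran from 23.4 to 46.3% in CK and from 23.1 to 47.1% in Put. The share of the A copy thus overlapped between the conditions while the summed level rose from 8.70 ± 0.630 to 15.9 ± 0.794 CPM. Per length, the A copy held a mean of 8.05% of the summed FPKM of the 3 genes in CK and 8.79% in Put. This is lower than by counts for reasons of scale. Its exons are longer, and the FPKM of both D genes, each divided by its own length, are added. The annotated copies are also unlike. LOC121214757 lists PsaD, which on D02 is listed by a separate gene, LOC121214453, that is not in these sums or shares.

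The longer gene of each of these loci overlaps a gene on the other strand. LOC121214758, described as photosystem I reaction center subunit II, shares 657 bp with LOC121214757 and had 8 to 13 counts in every sample. On D02, LOC121214453 has the same description, shares 534 bp with LOC107927763 and lists the enzyme domain of copper amine oxidases beside PsaD. Its counts were 380, 385 and 363 in CK and 311, 266 and 331 in Put, more than those of LOC107927763 in every sample. Neither overlapping gene was called (log2 fold change 0.43, adjusted p = 0.493 for LOC121214758 and -0.15, adjusted p = 0.150 for LOC121214453, edgeR). No strand-marking version of the library kits is named, and the strand setting of the counting is not given, in the sources used here. Whether reads of the shared bases were told apart is therefore not known, and either gene may hold reads of the other.

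The other primary amine oxidases were lower in Put. LOC107895118 (A08, 116314204 to 116317221, minus strand) lists all 3 copper amine oxidase domains in 2627 bp of exons. Its counts were 141, 155 and 142 in CK and 44, 30 and 47 in Put. No Put sample reached a CK sample. The mean was 7.52 ± 0.318 CPM in CK and 2.31 ± 0.492 CPM in Put (log2 fold change -1.69, standard error 0.17). In CK it had more CPM than any of the other 7 genes.

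The homeolog of LOC107895118 is LOC107931297 on D08, which is not among the 8 genes (17 of 21 surrounding descriptions shared, against at most 3 elsewhere). LOC107931297 had 109, 108 and 109 counts in CK and 87, 68 and 95 in Put, and it was not called (log2 fold change -0.22, standard error 0.15, adjusted p = 0.267, edgeR). The A copy held 56.4, 58.9 and 56.6% of the counts of this pair in CK. In Put the same share was 33.6, 30.6 and 33.1%. The D copy thus had fewer counts than the A copy in each CK sample and more in each Put sample. Because LOC107895118 was listed with the comparison of Put and CK in view, this shift in its share may come with the selection and is not a separate result. Reads of close copies can be exchanged between them in mapping, and how the counting treated reads that map to both is not given in the sources used here.

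**Figure D2:**
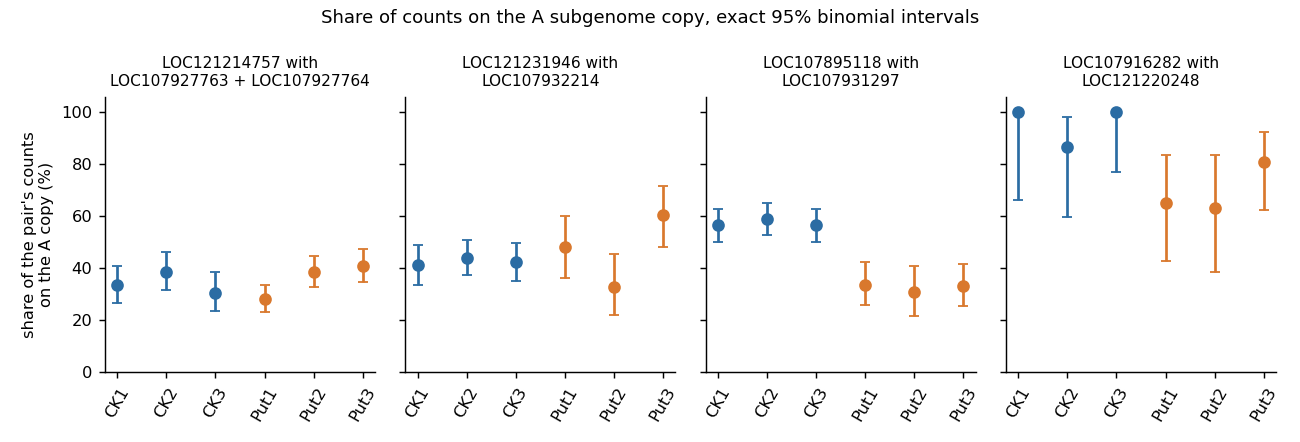
Share (%) of the counts of a homeolog pair that fell on the copy in the A subgenome, for each of the 3 CK (blue) and 3 Put (orange) samples, with exact 95% binomial intervals that cover counting error only. The share on A08 (LOC107895118) lies between 56.4 and 58.9% in CK and between 30.6 and 33.6% in Put, the shares of the A02 and A07 copies overlap between conditions, and the polyamine oxidase 1 pair rests on few counts.

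LOC107963669 on A03 (2621189 to 2624615, plus strand, primary amine oxidase-like) was the lowest of the 8 genes in Put. It had 14, 20 and 21 counts in CK and 7, 3 and 4 in Put, of which the lowest is at the detection floor. The mean fell from 0.944 ± 0.193 to 0.265 ± 0.106 CPM (log2 fold change -1.79, standard error 0.47). Without Put replicate 1 the log2 fold change was -2.16, and the gene was too low for the filter of the FPKM alternatives. Its homeolog LOC107919647 on D03 (16 of 18 surrounding descriptions shared) is annotated as a pseudogene and had 0 counts in all 6 samples. A pseudogene that follows LOC107963669 on A03, LOC107963671, had 1 count, in a Put sample. The A03 gene therefore carried all detected counts of its pair.

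The higher and the lower primary amine oxidases among the listed genes nearly balanced in sum. The 5 genes together had 17.2, 17.9 and 16.4 CPM in CK and 19.4, 18.0 and 18.0 in Put. Every Put sum was above every CK sum, by a small amount. The log2 ratio was 0.11 between means of 17.2 ± 0.707 and 18.5 ± 0.807. The A02 and D02 genes made up 8.70 CPM of that sum in CK and 15.9 in Put. Per length, the sum of the 5 genes went from 7.61 ± 0.0487 to 8.67 ± 0.851 FPKM. These sums cover the listed genes only, and their ratio depends on which genes were listed. They leave out the D08 gene LOC107931297, at 5.60 ± 0.0907 CPM in CK and 4.79 ± 0.761 CPM in Put.

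Both genes described as probable polyamine oxidase 5 were lower in Put. LOC107932214 on D07 (1296745 to 1298533, minus strand) and LOC121231946 on A07 (1332303 to 1334101, minus strand) have no annotated intron, and each lists the domain of flavin-containing amine oxidoreductases. LOC107932214 had 102, 121 and 107 counts in CK and 38, 45 and 29 in Put. Its mean fell from 5.66 ± 0.446 to 2.15 ± 0.491 CPM (log2 fold change -1.40, standard error 0.19). LOC121231946 had 71, 95 and 78 counts in CK and 35, 22 and 44 in Put, and its mean fell from 4.18 ± 0.589 to 1.93 ± 0.634 CPM (log2 fold change -1.11, standard error 0.21). In both genes the highest Put sample lay below the lowest CK sample.

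These 2 genes are homeologs, with 19 of 21 surrounding descriptions of the A07 gene found again on D07. Their sum was steadier among the Put samples than either gene. It was 8.96, 10.99 and 9.59 CPM in CK and 4.002, 3.98 and 4.27 in Put, a log2 ratio of -1.27. The A copy held 41.0, 44.0 and 42.2% of the counts of the pair in CK but 47.9, 32.8 and 60.3% in Put. The Put samples with the lowest and the highest share had intervals of 21.8 to 45.4% and 48.1 to 71.5%, which do not overlap, so the share varied among the Put samples by more than counting error. The other genes described as probable polyamine oxidase 5, LOC107937735 on A05 and LOC107907142 on D05, were not called, with log2 fold changes of -0.12 (adjusted p = 0.707) and -0.20 (adjusted p = 0.385, edgeR).

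LOC107916282, described as polyamine oxidase 1 (A08, 8390862 to 8396288, plus strand), was the least abundant of the 8 genes in CK. It had 9, 13 and 14 counts in CK and 15, 12 and 25 in Put, and the conditions overlapped. The mean CPM was 0.618 ± 0.135 in CK and 0.999 ± 0.405 in Put. The log2 fold change was 0.69 (standard error 0.39). Put replicate 3 had the most counts, 25, and without it the log2 fold change was 0.31.

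The homeolog of LOC107916282 on D08, LOC121220248 (18 of 21 surrounding descriptions shared), had 0, 2 and 0 counts in CK and 8, 7 and 6 in Put. All 3 Put samples were above the detection floor and no CK sample was. It did not pass the filter of the main test. The summed counts, scaled to the normalized library sizes, gave a ratio of Put to CK of 11.7. Its exact 95% interval of 2.87 to 103 covers counting error only. DESeq2 called it higher (adjusted p = 0.0241), as did edgeR when every gene with a count was fitted (adjusted p = 0.00491). The other polyamine oxidase 1 genes, LOC107942395 on A08 and LOC107900764 on D08, had log2 fold changes of 0.17 (adjusted p = 0.349) and 0.18 (adjusted p = 0.694, edgeR) and were not called.

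Levels of different genes were compared per length, as the FPKM that the authors deposited, which divide read pairs by exon length and library size. In CK, LOC107932214 stood first at 3.15 ± 0.247 FPKM and LOC107895118 next at 2.85 ± 0.119, with overlapping ranges. LOC107927764 at 2.53 ± 0.240 and LOC121231946 at 2.32 ± 0.325 overlapped each other, and LOC107927763 lay below them at 1.502 ± 0.143. LOC107963669, LOC121214757 and LOC107916282 formed the bottom of the order at 0.377 ± 0.0771, 0.352 ± 0.0603 and 0.309 ± 0.0678 FPKM, and neighbours among them did not differ beyond their spread. In Put the order changed. LOC107927764 at 4.23 ± 0.614 and LOC107927763 at 2.79 ± 0.668 FPKM came first, the mean of LOC107895118, at 0.876 ± 0.186, lay below those of both polyamine oxidase 5 genes, and LOC107963669 came last at 0.106 ± 0.0424.

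**Figure D3:**
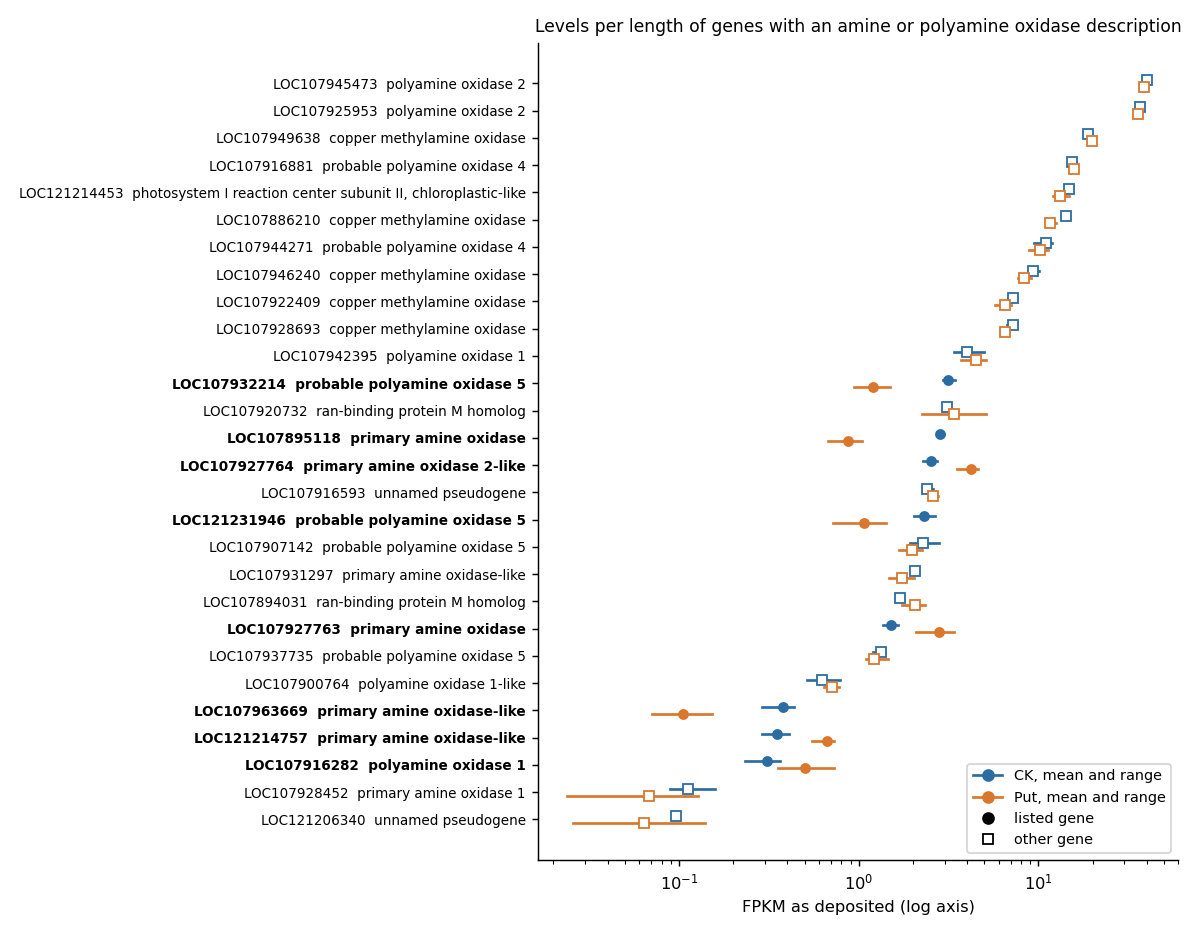
FPKM as deposited (log axis) of 28 of the 32 genes with an amine or polyamine oxidase description, as the mean (symbol) and range (line) of the 3 CK (blue) and 3 Put (orange) samples. Filled circles and bold names are the 8 listed genes, open squares the others, and 4 genes with a mean under 0.05 FPKM in CK are not drawn. The listed genes lie from the middle of the order to near its lower end, among other genes of the family. All are below the polyamine oxidase 2 genes at 36.9 and 40.3 FPKM in CK.

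The other 24 genes with an amine or polyamine oxidase description include 17 named as such enzymes, 3 named as other proteins with such a domain and 4 unnamed pseudogenes. Of these, 18 were tested in the same comparison, 0 were higher, 1 was lower and 17 were not called, with a median log2 fold change of -0.08. Of all tested genes, 36.6% were called (18.4% higher and 18.2% lower). These 24 genes are what remained after the 8 were listed with that comparison in view. Few calls among them may therefore come with the selection and are not a separate result. At an unadjusted p under 0.05 edgeR gave 0 higher and 2 lower, DESeq2's adjusted test gave 1 higher and 1 lower, and limma on FPKM gave 0 higher and 1 lower. The lower gene was LOC107886210 on A03, a copper methylamine oxidase, which fell from 48.0 ± 1.24 to 39.3 ± 2.73 CPM (log2 fold change -0.29, standard error 0.06, adjusted p = 2.05e-05, edgeR). Its 3 Put samples were all below CK. The abundant genes of the family were the polyamine oxidase 2 genes, known in *A. thaliana* as peroxisomal, at 40.3 ± 1.13 and 38.6 ± 0.671 FPKM in CK and Put for LOC107945473 (D12) and 36.9 ± 1.30 and 35.6 ± 1.15 for LOC107925953 (A12). Neither was called (adjusted p = 0.227 and 0.385, edgeR). The 8 listed genes held 5.35, 6.05 and 5.42% of all counts of the 32 genes in CK and 5.29, 4.82 and 4.99% in Put. LOC107886210 alone had more counts than the 8 listed genes together in every sample.

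**Figure D4:**
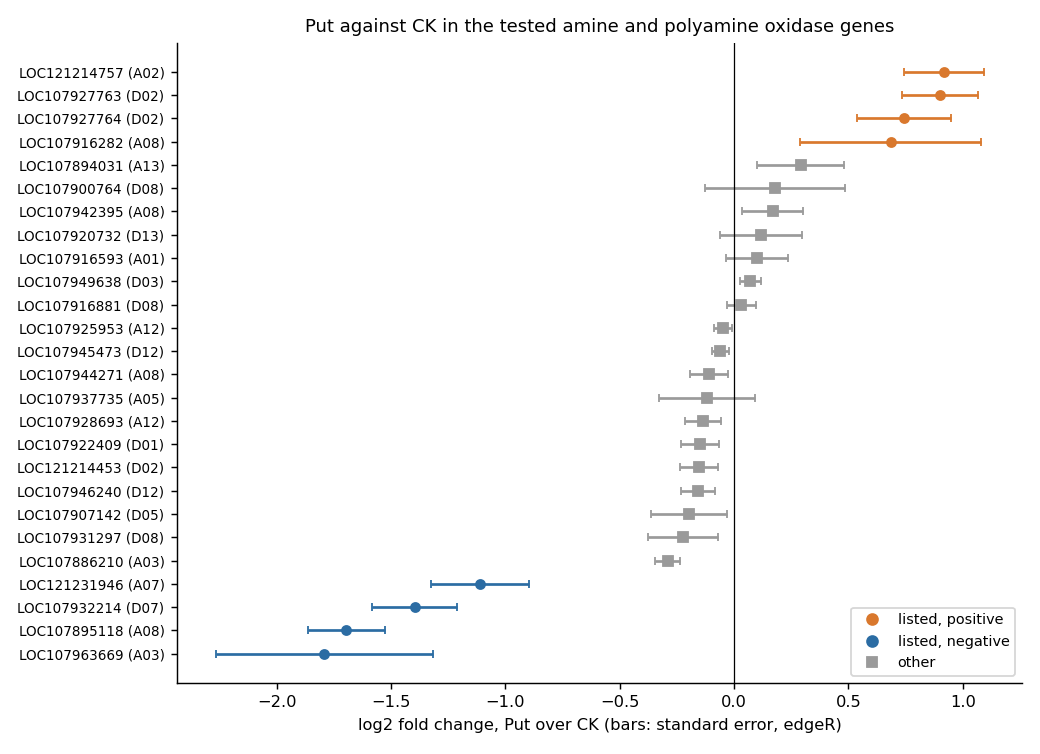
Log2 fold change of Put over CK (edgeR, bars are the standard error) in the 8 listed genes (circles, orange where positive and blue where negative) and in the 18 other tested genes of the family (grey squares). The listed genes lie at both ends, from -1.79 to 0.92. The list was drawn up with this comparison in view, so this is not a separate result. The only other gene called is LOC107886210 at -0.29.

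Around the oxidases, the steps that make, move and use polyamines were counted by gene description. These counts and those in the paragraphs below stand beside 18.4% higher and 18.2% lower among all tested genes. Of 12 tested genes of Put synthesis, 2 were higher and 6 lower (median log2 fold change -0.18). The 6 tested arginine decarboxylase genes, which start Put synthesis from arginine, included 5 of the lower and 0 of the higher genes (5 lower and 0 higher at an unadjusted p under 0.05 with edgeR, and 3 lower and 0 higher with DESeq2 or with limma on FPKM). The most abundant, LOC107893794 on A13, had 313, 304 and 317 CPM in CK and 227, 228 and 231 in Put (log2 fold change -0.45, standard error 0.03, adjusted p = 3.40e-21), and LOC107919776 on D13 had a log2 fold change of -0.39 (adjusted p = 2.15e-17, edgeR). Of 15 tested genes that make spermidine, spermine and thermospermine, 2 were higher and 3 lower (median -0.04). An S-adenosylmethionine decarboxylase on D02, LOC107887408, which supplies the aminopropyl group, fell from 602 ± 3.10 to 554 ± 4.37 CPM (log2 fold change -0.12, adjusted p = 2.06e-06), and LOC107887409 on A03 was not called (-0.04, adjusted p = 0.130, edgeR). Of 9 tested polyamine transporter genes, 2 were higher and 4 lower (median -0.22), among them LOC107897497 on A10 at -0.22 (adjusted p = 0.00105) and LOC107914455 on D10 at -0.29 (adjusted p = 0.0137, edgeR).

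Downstream of the primary amine oxidases, 18 genes of the aminoaldehyde and GABA steps were tested, of which 6 were higher and 5 lower (median 0.07). The higher genes included 5 of 8 tested glutamate decarboxylase genes, which make GABA from glutamate and not from Put, and 1 gene of that kind was lower. LOC107946304 on D12 rose from 82.8 ± 2.87 to 223 ± 4.91 CPM (log2 fold change 1.43, adjusted p = 1.04e-38, edgeR). Of the 4 tested GABA transaminase genes, which break GABA down, 2 were lower, and LOC107924570 on A11 fell from 219 ± 2.45 to 156 ± 3.72 CPM (log2 fold change -0.49, adjusted p = 1.36e-20, edgeR). Of the 4 tested betaine aldehyde dehydrogenase genes, the class that includes aminoaldehyde dehydrogenases, 1 was higher and 2 were lower.

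Hydrogen peroxide is the product that both kinds of oxidase share. Of 23 tested catalase and ascorbate peroxidase genes, which remove it, 3 were higher and 11 lower (median -0.12). No other kind of peroxidase was counted. All 4 tested catalase genes were lower, and of 19 tested ascorbate peroxidase genes 3 were higher and 7 lower. The most abundant ascorbate peroxidases moved in opposite directions, LOC107959060 on A05 from 261 ± 2.85 to 281 ± 4.60 CPM (adjusted p = 5.78e-04) and LOC107906191 on D05 from 186 ± 2.46 to 171 ± 2.92 CPM (adjusted p = 9.52e-04, edgeR). Of the 15 tested respiratory burst oxidase genes, whose products make superoxide that is turned into hydrogen peroxide, 1 was higher and 11 were lower (median -0.45). LOC107946633 (respiratory burst oxidase homolog C, D12) was at 80.2, 84.0 and 85.4 CPM in CK and 60.7, 59.8 and 62.6 in Put (log2 fold change -0.45, adjusted p = 8.89e-13), and LOC107957571 (homolog D, A05) was not called (-0.05, adjusted p = 0.507, edgeR). Over all lists, 16 of 92 tested genes were higher and 40 lower, with a median of -0.10 where all tested genes had 8.9e-04.

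**Figure D5:**
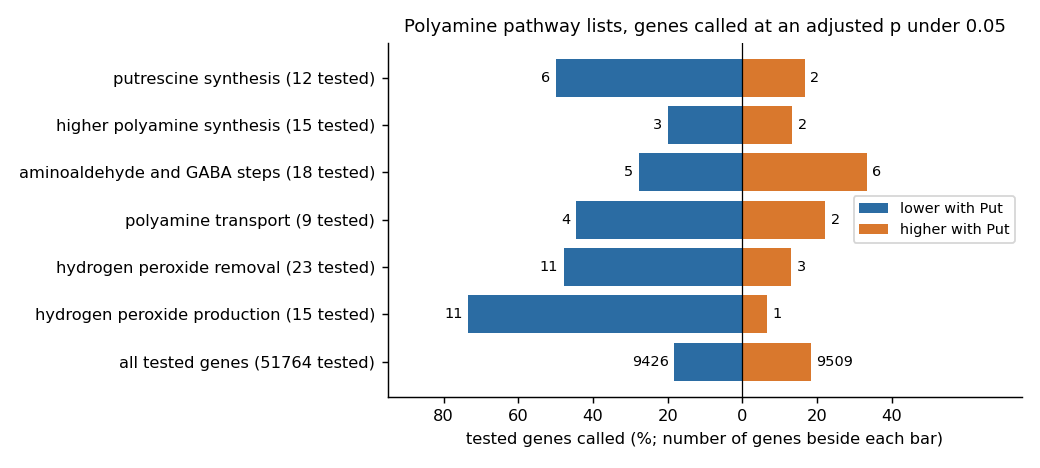
Tested genes called lower (blue, to the left) and higher (orange, to the right) with Put in each polyamine pathway list, as a percentage of the genes tested, with the number of genes beside each bar. Of the 15 tested respiratory burst oxidase genes (hydrogen peroxide production) 11 were lower, and the lowest bar gives the 18.2% lower and 18.4% higher of all tested genes. Hydrogen peroxide removal holds catalase and ascorbate peroxidase genes only.

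The genes most like 2 of the oxidases across samples were sought by the root mean square difference of log2 CPM, each gene centred on its own mean, over the 6 samples and 34604 genes. For LOC107932214, the polyamine oxidase 5 gene with the highest FPKM in CK, these were a protein SRG1-like gene on A06 (LOC107962565, difference 0.0834), a very-long-chain aldehyde decarbonylase CER1-like gene on D07 (LOC107961728, 0.0941) and a scopoletin glucosyltransferase-like gene on D13 (LOC121225662, 0.0952). For LOC107963669, which had the lowest log2 fold change, they were a stemmadenine O-acetyltransferase-like gene on D02 (LOC107909754, 0.0854), protein PPLZ02 on D05 (LOC107906850, 0.0961) and a transcription factor RAX2-like gene on A06 (LOC107930567, 0.101). All of these had lower CPM in Put, as the pattern sought requires.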

How the data were processed

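Ovule RNA was sequenced in 3 CK and 3 Put samples. The authors aligned reads with HISAT2 2.0.5 and deposited unnormalized counts, the read pairs assigned to each gene of the Gossypium_hirsutum_v2.1 annotation. The FPKM that the authors deposited are scaled between samples by factors equal to DESeq2's size factors. The counting program and its strand setting are not given in the sources used here. Of 100562 identifiers, 99451 matched the RefSeq gene table.

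Put and CK were compared with edgeR 4.0.16 in R 4.3.3 (filterByExpr, TMM, quasi-likelihood test, Benjamini-Hochberg adjustment over all tested genes). The code was tested on simulated data. CPM are counts scaled to the TMM library size. Alternatives used DESeq2 1.42.0, and limma 3.58.1 on log2(FPKM + 1) or log2(FPKM + 0.1) where the mean FPKM reached 0.5.

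The 8 genes and all lists were chosen with earlier results of these data known. The family was matched on the whole annotation text, and pathway and marker lists on the gene's name. Named genes were the 8, their homeologs, called family genes, at most 2 abundant genes per list, and the 3 nearest in pattern to 2 members. Other family genes and the overlapping and neighbouring genes were named after their values were seen. Homeologs were matched by surrounding gene descriptions, since protein sequences were not used here. No gene matched the polyamine conjugation list. GO and KEGG terms were not analysed.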

Additional observations from a re-analysis of the deposited data

How the results depend on the processing

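Of the alternative values computed, 262 kept their direction and their side of the threshold or stayed near the first value, 19 moved further, and none reversed. Under a minimum absolute log2 fold change of 1, all genes gave 1967 higher and 996 lower, the pathway lists 3 higher and 5 lower, the other family genes 0 lower and the 8 genes 0 higher, because all 3 higher genes lie under that size. Of the other family genes, 1 was called higher with DESeq2's test and 1 with every gene with a count fitted (LOC121220248 in both), and 1 with offsets that follow gene length (LOC107949638). There were 2 called lower without TMM and 2 with the length offsets. When each replicate was left out in turn this count ranged from 1 to 2, with LOC107946240 added without Put replicate 1 and LOC121214453 without Put replicate 3. The same pair of genes was added without TMM and with the length offsets, in that order. The A share of the A02 and D02 genes was 34.2% in CK and 35.8% in Put by counts, against 8.05 and 8.79% of the summed FPKM. The log2 fold changes of LOC107895118, LOC107932214, LOC121231946 and LOC107927763 were -1.04, -0.92, -0.69 and 0.59 with limma on log2(FPKM + 1), a scale that compresses low genes.

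With the replicate number as a block, 9379 genes were higher and 9279 lower, against 9509 and 9426 without it. Same-numbered samples did not deviate together (correlations of -0.005, -0.009 and -0.013), so the numbers are not read as a pairing. The calls of the 8 genes did not change with the block. With limma on either FPKM scale, 2 of the 8 were called higher and 3 lower. There LOC121214757 was not called, and LOC107963669 and LOC107916282 were too low to be fitted.

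Counts of 3 to 25 per sample limit LOC107963669 and LOC107916282, and the A and D shares rest on how reads of close copies were assigned.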

Other observations

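The genes beside the 8 oxidases in the genome were read from the same fit. Among the 5 genes on each side of each, 53 distinct genes were tested, of which 9 were higher and 6 lower in Put. Their median log2 fold change was 0.02. In all tested genes 18.4% were higher and 18.2% lower. Beside the A02 and D02 primary amine oxidases, which were higher, the medians of the neighbouring genes lay between 0.09 and 0.22. Beside the lower oxidases they lay on both sides of 0, between -0.12 (LOC121231946) and 0.06 (LOC107932214). Beside the A08 gene LOC107895118, which was 3.24-fold lower, 2 of 7 tested neighbours were higher and 1 was lower. Beside the polyamine oxidase 5 genes, 1 of 9 tested neighbours on D07 was higher and 2 were lower, and 2 of 8 on A07 were higher and 1 was lower.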
